A study of Mus musculus with 2 samples.

Results

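The genes described are 9 that are widely used to follow the first steps of neural differentiation, Sox1, Sox3, Sox4, Sox11, Pax6, Neurod1, Nes, Map2 and Ncam1. They were taken by symbol from the 43629 gene rows of the deposited tables, and all 9 were present. RNA came from E14, a line of mouse embryonic stem cells, with the genotype given as wild type, the strain as 129/Ola, the blastocyst as tissue and no treatment. The labels hold 1 group of 2 polyadenylated RNA libraries. They carry the ages P33 and P42, which are not spelled out, and held 40139219 and 39657578 counts. Whether they came from separate cultures is not stated, so a spread between them may be technical. With a single library for each age, no test of P42 against P33 was possible and no p-value is printed.

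Neural tissue forms when cells that have left pluripotency become ectoderm and take up a neuroepithelial fate. SoxB1 factors (Sox1, Sox2, Sox3) hold neural progenitors in an undifferentiated state, Sox2 being shared with pluripotent stem cells, and Pax6 patterns the neural tube, eye and forebrain. Proneural bHLH factors such as Neurod1 then drive neuronal differentiation, and the SoxC factors Sox4 and Sox11 act in young neurons. Nes encodes the intermediate filament protein nestin of progenitors, Map2 a microtubule-associated protein of dendrites, and Ncam1 a cell adhesion molecule that is modified with polysialic acid in the developing nervous system. None of the last 3 is restricted to neural cells.

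The Sox members belong to families of alike genes, which bears on how their reads can be assigned. The 6 stretches below are 60-base coding stretches of each family, found by comparing the longest GENCODE M21 transcripts without gaps. They were picked for the highest summed likeness of the other genes to Sox1 or to Sox4. That is not the same as the most bases shared by all 3. Capitals mark bases that are the same in all 3 genes of the family. The first trio is SoxB1, with 56 of 60 bases shared by all 3.
Sox1: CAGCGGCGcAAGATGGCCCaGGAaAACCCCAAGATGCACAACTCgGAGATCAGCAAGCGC
Sox2: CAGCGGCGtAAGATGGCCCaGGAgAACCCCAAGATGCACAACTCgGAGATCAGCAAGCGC
Sox3: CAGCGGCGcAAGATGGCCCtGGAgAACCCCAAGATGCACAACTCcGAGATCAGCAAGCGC
The second trio is SoxC, with 55 of 60 bases shared by all 3.
Sox4: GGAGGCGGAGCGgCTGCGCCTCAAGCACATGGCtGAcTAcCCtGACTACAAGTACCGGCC
Sox11: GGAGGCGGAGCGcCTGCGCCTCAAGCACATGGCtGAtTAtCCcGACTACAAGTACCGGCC
Sox12: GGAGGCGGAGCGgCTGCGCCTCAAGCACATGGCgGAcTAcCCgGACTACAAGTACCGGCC
The longest run of identical bases over the whole transcripts was 45 for Sox1 with Sox3, 38 for Sox1 with Sox2 and 32 for Sox2 with Sox3. It was 48 for Sox4 with Sox11, 33 for Sox4 with Sox12 and 20 for Sox11 with Sox12. All of these runs lay in coding sequence. The sources used here state neither the read length nor the handling of reads with several positions, and whether reads from these runs were lost or moved between paralogs was not tested.

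Of the 9 genes, 7 were detected, meaning at least 1 CPM (counts scaled to library size, here with TMM factors, a trimmed mean of the gene ratios) in both libraries. In all, 29.8% of the genes in the tables and 54.0% of the protein-coding genes were detected. The detected members lay at low to moderate levels, and Pax6 and Sox3 were close to the floor of the measurement. Together the 9 genes took 81.6 CPM in P33 against 83.0 CPM in P42. The same libraries held the pluripotency factor genes at far higher CPM, with all 8 listed pluripotent stem cell markers detected. These included Tfcp2l1 at 812 CPM in P33 against 1055 CPM in P42 and Dppa5a at 1493 and 1655 CPM (paired values give P33 first throughout).

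**Figure D1:**
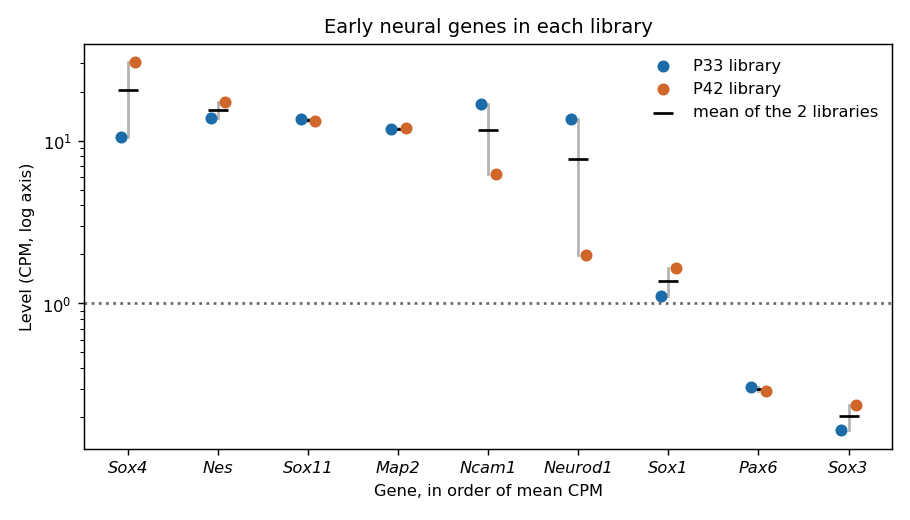
Level of each of the 9 genes in CPM (log axis) in the P33 library (blue) and the P42 library (orange), with a black bar at the mean and a dotted line at 1 CPM. Pax6 and Sox3 lie under 1 CPM in both libraries, and the points of Sox4, Ncam1 and Neurod1 are the most widely separated.

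Of the SoxB1 members, both were near or under the detection minimum while their relative Sox2 was abundant. Sox1 (ENSMUSG00000096014), an early marker of the neural plate, is a single-exon gene at chromosome 8, 12395295 to 12400126, on the plus strand (mm10, as all positions here). It had 47 counts in P33 and 62 in P42, or 1.38 ± 0.372 CPM (SD, n = 2). Sox1 thus stood just above 1 CPM in both libraries. Sox3 (ENSMUSG00000045179), which has a single exon at chromosome X, 60891366 to 60893430, on the minus strand, had 7 counts in P33 and 9 in P42. That is 0.202 ± 0.0511 CPM (SD, n = 2), too few counts to compare the libraries. Sox2 stood at 303 CPM in P33 against 619 CPM in P42, in the same family but at another order of level. Per kilobase of merged exons, Sox2 had a mean of 224 RPKM (CPM divided by the exon length in kilobases) against 0.285 RPKM for Sox1 and 0.0979 RPKM for Sox3.

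The SoxC members were better expressed, and the pair differed in how the libraries compared. Sox4 (ENSMUSG00000076431) has a single exon at chromosome 13, 28948919 to 28953713, on the minus strand. It had 442 counts in P33 and 1144 in P42, or 10.5 and 30.3 CPM. Sox11 (ENSMUSG00000063632), a single-exon gene at chromosome 12, 27334264 to 27342574, on the minus strand, had 572 counts in P33 and 496 in P42. Its level was 13.6 CPM in P33 against 13.1 CPM in P42, nearly the same in both libraries. On the CPM scale the P33 library thus held a little more Sox11 than Sox4, and the P42 library more Sox4. Per length, Sox4 stood above Sox11 in both libraries, at 2.19 against 1.63 RPKM in P33 and 6.32 against 1.58 RPKM in P42. Sox12, the third SoxC gene, stood at 38.1 CPM in P33 against 22.7 CPM in P42, so its libraries were ordered the other way from those of Sox4. The Sox12 difference was under 2-fold, with a log2 ratio of −0.75. It was −0.25 once the trend on GC content and length described below was subtracted. Per length, the mean levels were 6.83 RPKM for Sox12, 4.25 RPKM for Sox4 and 1.61 RPKM for Sox11.

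Pax6 was barely present, and Neurod1 was the member whose libraries differed most. Pax6 (ENSMUSG00000027168), at chromosome 2, 105668900 to 105697364, on the plus strand, had 13 counts in P33 and 11 in P42. These made 0.308 CPM in P33 against 0.291 CPM in P42, under the detection minimum in both libraries. Its overlapping antisense gene Pax6os1 had 0 counts in both. Neurod1 (ENSMUSG00000034701) has 2 exons at chromosome 2, 79452521 to 79456751, on the minus strand. It had 570 counts in P33 and 75 in P42, or 13.5 and 1.99 CPM. On the CPM scale the P33 level was close to that of Sox11 and Nes, while the P42 level was close to that of Sox1. Per length, Neurod1 stood above them, at 4.96 RPKM in P33 against 1.63 RPKM for Sox11 and 2.14 RPKM for Nes. In P42 it stood at 0.728 RPKM against 0.340 RPKM for Sox1.

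The structural and adhesion genes were all detected. Nes (ENSMUSG00000004891), with 4 exons in its longest transcript at chromosome 3, 87971078 to 87980451, on the plus strand, had 580 counts in P33 and 651 in P42. Its level was 13.8 CPM in P33 against 17.2 CPM in P42, slightly higher in P42. Map2 (ENSMUSG00000015222), with 15 exons in its longest transcript at chromosome 1, 66175273 to 66442583, on the plus strand, had 498 counts in P33 and 449 in P42. That gave 11.8 CPM in P33 against 11.9 CPM in P42, the closest pair of library values of any member relative to its level. Such closeness of 2 values is no measure of precision, since the counting interval of the Map2 log2 ratio ran from −0.18 to 0.20. Ncam1 (ENSMUSG00000039542), with 20 exons in its longest transcript at chromosome 9, 49502136 to 49798925, on the minus strand, had 710 counts in P33 and 237 in P42. It stood at 16.8 CPM in P33 and at 6.28 CPM in P42. On the CPM scale it was the highest of the 9 genes in P33, and 4 members lay above it in P42. Per length, Neurod1, Sox4 and Nes lay above it in P33.

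Scaled by the length of merged exons, the 9 genes spanned a wide range around the median protein-coding gene, which stood at 0.750 RPKM. The order of mean level per length was Sox4, Neurod1, Nes, Sox11, Ncam1, Map2, Sox1, Sox3 and Pax6. Sox4, at 4.25 ± 2.92 RPKM (SD, n = 2), lay above 67.5% of the 21551 protein-coding genes in the tables. Neurod1, at 2.84 ± 2.99 RPKM, and Nes, at 2.42 ± 0.383 RPKM (SD, n = 2), lay above 62.4% and 60.7% of them. The library values of Sox4, Neurod1 and Nes overlapped from each to the next. Those of Neurod1, from 0.728 to 4.96 RPKM, also spanned the values of Sox11 and overlapped those of Ncam1. Neurod1 stood above Sox4, Nes and Sox11 in P33 and under them in P42, so its place among them is not settled. Sox4 stood above Nes in both libraries, but closely in P33, at 2.19 against 2.14 RPKM. Neurod1 likewise stood above Ncam1 in both, but closely in P42, at 0.728 against 0.724 RPKM. The order within these 2 pairs is thus not settled either. Nes and Sox11 did not overlap, while Sox11, at 1.61 ± 0.0371 RPKM, and Ncam1, at 1.33 ± 0.862 RPKM (SD, n = 2), did. Map2 at 0.721 RPKM lay above 49.7% of protein-coding genes, Sox1 above 43.3%, Sox3 above 37.0% and Pax6, at 0.0256 RPKM, above 29.6%. From Ncam1 down, each gene's 2 library values lay above those of the next. The place of Map2 depends on the length used: divided by its longest transcript instead of its merged exons it stood at 1.89 RPKM, above Sox11. Pax6 likewise moved from 0.0256 to 0.0677 RPKM, with no change of rank.

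**Figure D2:**
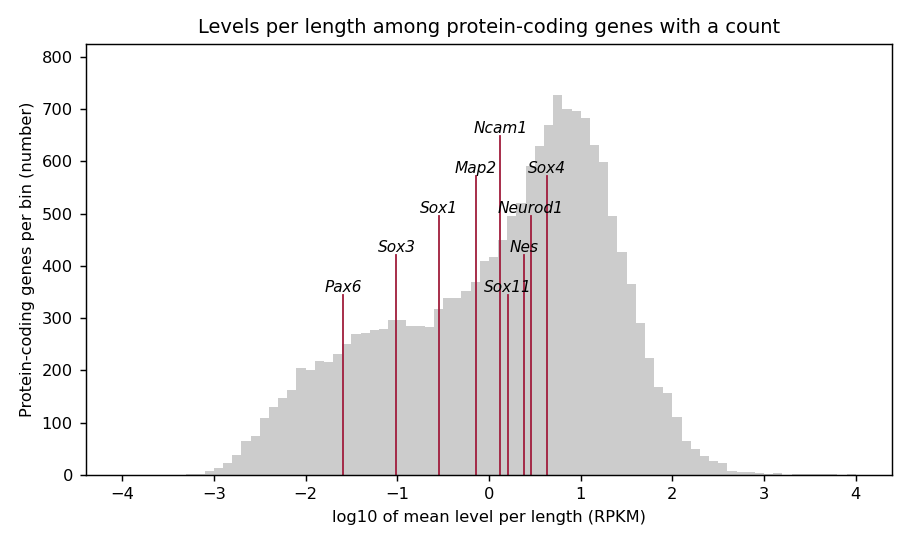
Histogram of the mean level per length, as log10 of RPKM, of all protein-coding genes with a count (grey), with red lines at the 9 early neural genes. Sox4 at 4.25 RPKM is the rightmost line and Pax6 at 0.0256 RPKM the leftmost, and line heights have no meaning.

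The second question was how far the libraries differ in these genes. Genes were counted higher or lower in P42 if 3 conditions held, a mean of 1 CPM or more, a ratio of 2-fold or more and an exact 95% counting interval without equality. Among the 13737 genes at a mean of 1 CPM or more, 5.07% were higher and 9.54% lower, 14.6% in all. Of the 7 members at that level 3 were counted, Sox4 higher and Neurod1 and Ncam1 lower, and 4 were not. Low-level genes differed more often, and among the 7210 genes with a mean of 1 to 25 CPM, the range that holds all 7 members, 6.73% were higher and 15.1% lower, 21.8% in all. A count of 3 of 7 is a small number to set beside that share, and nothing particular to these genes is read from it. With scaling by total counts, which lowers every log2 ratio by 0.14, the lower genes made up 78.1% of the genes counted in either direction in place of 65.3%, and Sox4, Neurod1 and Ncam1 were again the members counted. Of the 13756 genes then at a mean of 1 CPM or more, 3.39% were higher and 12.1% lower, 15.4% in all.

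Sox4 was higher in P42 by a log2 ratio of 1.53 (1.37 to 1.69, 95% counting interval), a 2.89-fold difference. Neurod1 was lower, with a log2 ratio of −2.76 (−3.13 to −2.42), or 6.77-fold higher in P33. Ncam1 was lower as well, with a log2 ratio of −1.42 (−1.64 to −1.21), or 2.68-fold higher in P33. For genes with a mean of 1 to 25 CPM the central 95% of log2 ratios ran from −2.38 to 1.45. Sox4 and Neurod1 thus lay just beyond that range, on opposite sides, and Ncam1 inside it.

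The other members differed by less than 2-fold. The log2 ratio was 0.33 (0.16 to 0.49) for Nes, smaller than the median size of 0.49 among genes with a mean of 1 to 25 CPM. It was −0.05 (−0.22 to 0.13) for Sox11 and 0.01 for Map2. Sox1 had a ratio of 0.55 (−0.01 to 1.14), for which the counts did not separate the libraries. The untested Sox3 and Pax6 had ratios of 0.50 (−1.07 to 2.18) and −0.07 (−1.38 to 1.19), with intervals that allow a 2-fold difference either way. The median log2 ratio of the 7 members was 0.01, beside 0.04 for all genes tested.

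**Figure D3:**
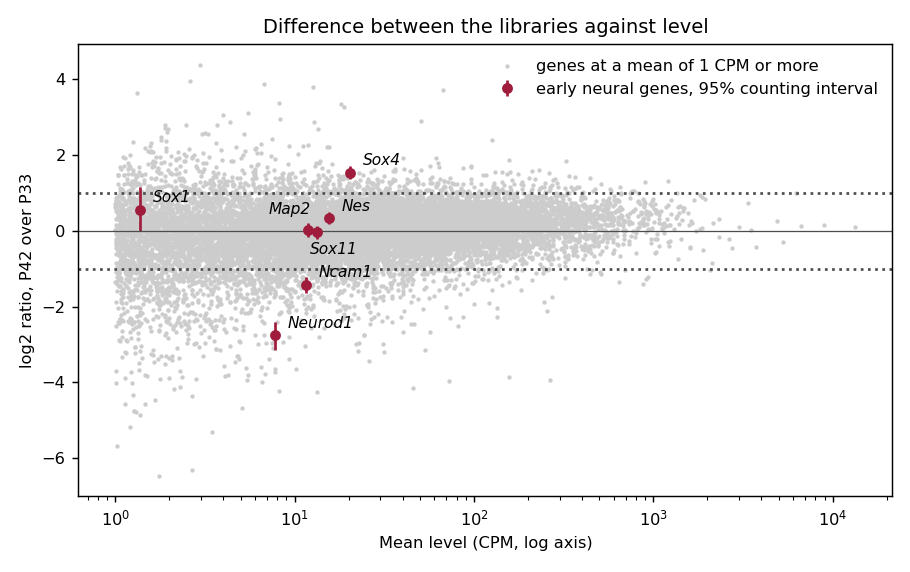
The log2 ratio of P42 over P33 against mean CPM (log axis) for genes at a mean of 1 CPM or more with a symbol (grey) and for the 7 early neural genes at that level (red, with 95% counting intervals). Sox4 lies above the dotted line of a 2-fold difference, Ncam1 and Neurod1 below the other, and Sox1, Map2, Sox11 and Nes between them.

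The ratio between the libraries varied with the GC content and length of transcripts across all genes, so the members were also set against that trend. Neurod1 had the lowest GC content of the 9, 43.6% in its longest transcript, where the trend stood at 0.37, and its ratio was −3.13 once the trend was subtracted. The Sox4 ratio was 1.51 and that of Ncam1 −1.39 without the trend, little moved from their values above. Nes, at 55.5% GC, was the member whose ratio left its counting interval, from 0.33 to 0.65, and Sox1, at 56.9% GC, went from 0.55 to 0.89. With the trend removed 3.86% of the 13668 genes compared were higher and 8.18% lower, and Sox4, Neurod1 and Ncam1 were the members counted.

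**Figure D4:**
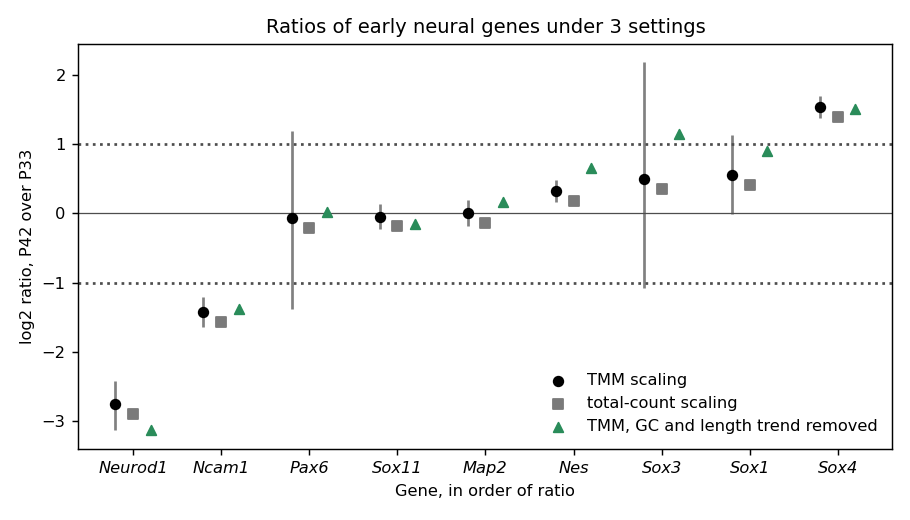
The log2 ratio of P42 over P33 for the 9 early neural genes with TMM scaling (circles, with 95% counting intervals), with scaling by total counts (squares) and after removal of the trend on GC and length (triangles), with dotted lines at a 2-fold difference. Neurod1 and Ncam1 lie below the lower dotted line and Sox4 above the upper one in all 3 settings, while Sox3, with 7 and 9 counts, crosses the upper line without the trend.

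Several members share their place with other genes, which limits how their counts can be read. Neurod1 lies inside the span of Cerkl, a ceramide kinase-like gene on the same strand, and 7.37% of the Neurod1 exon bases are also exon bases of Cerkl in GENCODE M21. Cerkl had 68 counts in P33 and 13 in P42, a log2 ratio of −2.18 (−3.21 to −1.36), the same direction as Neurod1. At 1.61 CPM in P33 against 0.344 CPM in P42, its mean lay under the 1 CPM minimum, so Cerkl was not among the genes compared. Reads from the shared bases cannot be told apart, and whether the 2 genes differed separately was not tested. The region is shown because the annotated 5′ ends of both genes fall in the RefSeq promoter window of Neurod1 (GRCm38.p6, chr2:79456587-79456886, minus strand), at base 102 of the window for Cerkl and base 136 for Neurod1, with the RefSeq start of Neurod1 at base 251. Capitals mark the match to CANNTG, the E-box motif that bHLH factors bind, searched on both strands, which read alike for this motif.
Neurod1 promoter: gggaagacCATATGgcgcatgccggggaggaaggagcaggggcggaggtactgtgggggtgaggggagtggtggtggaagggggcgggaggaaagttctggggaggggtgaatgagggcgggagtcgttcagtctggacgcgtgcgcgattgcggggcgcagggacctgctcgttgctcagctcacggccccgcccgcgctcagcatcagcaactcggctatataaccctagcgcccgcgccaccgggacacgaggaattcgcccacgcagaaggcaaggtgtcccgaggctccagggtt
It holds 1 such match, and 72.3% of the 32851 promoter windows of 300 bases hold at least 1, so the match does not set Neurod1 apart. RefSeq windows were found for 7 of the 9 members.

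Sox4 and Ncam1 also share exon bases with other genes. Gm26735, a long noncoding RNA gene on the opposite strand, covers 54.6% of the Sox4 exon bases and had 1 count in P33 and 9 in P42. The labels name a reverse-stranded protocol, but the sources used here do not state the strand setting of the counting. Sox1ot spans Sox1 on the same strand with 0 shared exon bases and had 1 count and 0 counts. The microRNA gene Gm25239 covers 1.78% of the Sox1 exon bases on the same strand and had 0 counts in both libraries. Gm26755, a long noncoding RNA gene on the strand opposite Neurod1, covers 5.64% of the Neurod1 exon bases. It had 3 counts in P33 and 0 in P42. Antisense genes over 4.81% of the Ncam1 exon bases (Gm11149) and 0.754% of those of Map2 (Gm10558) had 0 counts in both libraries. For Sox1, Sox3, Sox4 and Sox11, which have a single exon and no splicing, counts in the exon do not tell messenger RNA from other sequence.

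Of the lists of genes related to the 9, the proneural list and the neural plate and patterning list were mostly not detected, while most of the Sox list was. Of 14 proneural bHLH genes Neurod1 alone was detected, and Neurog2, Neurod2, Neurod6 and Nhlh2 had 0 counts in both libraries, while Atoh1 had 12 counts in P33 and 0 in P42. Of 31 neural plate and patterning factor genes 8 were detected, 10 had a mean of at least 1 CPM and 0 were counted higher or lower, against 1 lower with total counts. Otx2, a factor of the epiblast and forebrain, stood at 22.5 and 32.5 CPM. Six3, Six6, Rax, Nkx2-2, Nkx6-1 and Dbx1 of this list had 0 counts in both libraries. In the Sox list 5 of 6 genes were detected and 2 were counted higher, Sox4 and Sox2. For this and the other lists, the shares over all genes at a mean of 1 CPM or more were 5.07% higher and 9.54% lower. The Sox2 log2 ratio of 1.03 (1.00 to 1.06) became 0.89 with total counts and 0.86 without the GC and length trend, under the 2-fold limit both times.

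Of the lists of repressors, that of the REST complex was detected throughout and that of bHLH repressors and Id genes in part. All 11 genes of the REST repressor complex list were detected, a complex that keeps neuronal genes silent in other cells. Rest itself stood at 611 CPM in P33 against 402 CPM in P42, and its partner Kdm1a, a histone demethylase, at 391 and 425 CPM. Ehmt2, a histone H3K9 methyltransferase, was the member counted lower, with a log2 ratio of −1.40 (−1.48 to −1.32), and it was not counted without the GC and length trend. Of 11 bHLH repressor and Id genes 7 were detected, and Hes5 had 0 counts in both libraries, Hes3 had 3 and 0 and Hes7 had 1 and 2. Among those detected were Hes1, a Notch target, at 15.9 CPM in P33 against 29.4 CPM in P42 and Id1, a BMP target, at 19.1 and 15.5 CPM. Id3, which blocks bHLH factors by binding their partners, was counted lower at −1.60 (−1.86 to −1.36).

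Among progenitor cytoskeleton and surface genes, the list that holds Nes, 9 of 11 were detected. Of the 10 at a mean of 1 CPM or more, 1 was counted higher and 3 lower, beside 5.07% and 9.54% of all such genes. The RNA-binding protein gene Msi1 was higher at 1.31 (1.14 to 1.49), while its paralog Msi2, the most abundant of the list, was at 166 CPM in P33 against 164 CPM in P42, followed by the filament gene Vim at 82.5 and 67.5 CPM. Lower were the adhesion gene Cdh2 at −1.70 (−2.30 to −1.16), which lay under 1 CPM in P42, the receptor gene Notch1 at −1.39 (−1.51 to −1.26) and its ligand gene Dll1 at −1.05 (−1.56 to −0.57). Without the GC and length trend Msi1 and Cdh2 alone of these 4 were counted.

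Neuronal cytoskeleton and synapse genes, the list that holds Map2, were detected for 13 of 17 genes. Stmn2, which encodes a microtubule-destabilizing protein of growing neurites, was the most abundant at 343 CPM in P33 against 335 CPM in P42, and Map1b followed at 141 and 132 CPM. Map2, at 11.8 and 11.9 CPM, lay well under these 2. The neuronal RNA-binding protein gene Elavl3 was counted higher at 1.10 (0.88 to 1.33), but not with total counts, with which Gap43 was counted lower. Without the GC and length trend Elavl3 and Nefm were higher and Gap43 lower. Dcx, a marker of young neurons, had 0 counts in both libraries, which allows up to 0.0712 CPM in P33 against 0.0794 CPM in P42 (3 counts, counting error only). Around Ncam1, 2 of 7 family and polysialylation genes were detected, Ncam1 and L1cam, the latter at 3.61 CPM in P33 against 4.03 CPM in P42. The polysialyltransferase genes that modify the Ncam1 protein had few counts, 2 in P33 and 0 in P42 for St8sia2 and 19 and 16 for St8sia4.

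**Figure D5:**
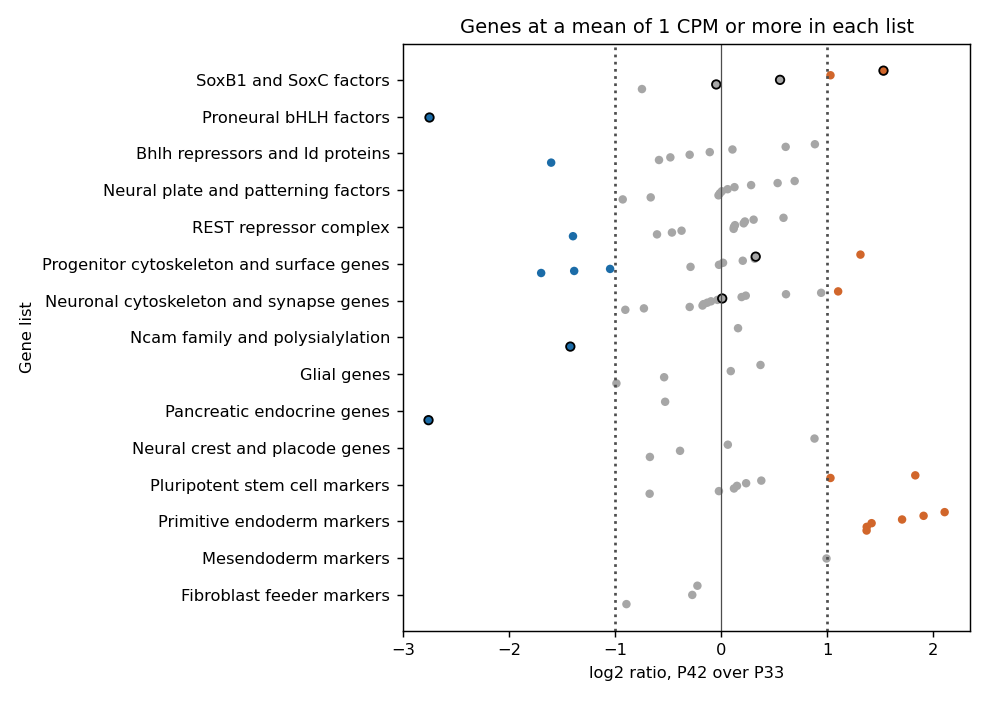
The log2 ratio of P42 over P33 for each gene at a mean of 1 CPM or more in 15 gene lists, coloured orange where counted higher in P42, blue where counted lower and grey otherwise, with early neural genes ringed in black and dotted lines at a 2-fold difference. The 6 primitive endoderm markers lie right of the upper line, while Neurod1, at −2.76, is the leftmost point of the plot.

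Below the 1 CPM minimum, 59 genes of the fixed lists had at least 1 count. For 6 of them the counting interval excluded equality with more in P42 and for 7 with more in P33. Among all 10392 genes under 1 CPM with a count, the shares were 4.22% and 10.6%. The 6 made up a larger share of the 59 than the 4.22% of all low genes, while the 7 were near the 10.6%. Both are small counts, and nothing particular to the list genes is read from them. Of the 7 with more in P33, the zinc finger factor gene Insm1 had 35 counts in P33 and 1 in P42, Pax7 had 26 and 1, Isl1 had 19 and 5, Sox10 had 23 and 3, and Atoh1 had 12 and 0. The others were the myelin gene Mog and the collagen gene Col1a1. Of the 6 with more in P42, the glial filament gene Gfap had 10 and 32 counts, the neural factor gene Pou3f3 had 4 and 14, and the endoderm factor gene Foxa2 had 6 and 24. The others were Ednrb, Mixl1 and Msx2. The genes named from this group were picked with their values in view.

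Other cell types that use the same genes were checked by their own markers. Neurod1 and Pax6 also act in pancreatic endocrine cells, and of 12 such genes 2 were detected, Neurod1 and the granule protein gene Chga at 7.88 CPM in P33 against 5.45 CPM in P42. The hormone genes Ins1, Ins2 and Gcg had 0 counts in both libraries. Of 10 glial genes 4 were detected, led by Cnp at 15.4 and 16.4 CPM and Aldh1l1 at 9.47 and 6.51 CPM, and 0 were counted higher or lower, against 1 lower with total counts. Of 10 neural crest and placode genes 4 were detected and 0 were counted, with Foxd3 at 13.0 and 9.93 CPM and Eya1 at 5.95 and 11.0 CPM. Of 7 mesendoderm markers Eomes alone was detected, at 3.27 and 6.49 CPM, and Mixl1 had 18 and 48 counts. Eomes was not counted, but was counted higher without the GC and length trend.

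Markers of primitive endoderm were higher in P42, the library in which Sox4 was higher and Neurod1 and Ncam1 were lower. All 6 were counted higher in P42, beside 5.07% of all genes at a mean of 1 CPM or more. The summed level of the 6 was 32.7 CPM in P33 against 107 CPM in P42, and 5 of them were detected in both libraries. Log2 ratios were 1.91 for Dab2, 2.11 for Sox17, 1.70 for Sox7, 1.42 for Gata4 and 1.37 for Pdgfra and Gata6. Fibroblast markers summed to 42.1 CPM in P33 against 33.2 CPM in P42, led by Thy1 at 29.8 and 24.7 CPM and Pdgfrb at 6.50 and 5.56 CPM, with 3 of 8 detected and Twist2 and Lum at 0 counts. None of the 3 was counted, against Fbn1 lower with total counts. Of the 8 pluripotency markers 2 were counted higher in P42, Klf4 at 1.83 and Sox2 at 1.03, and 0 lower. Klf4 alone was counted with total counts and without the GC and length trend. Pou5f1 stood at 803 CPM in P33 against 503 CPM in P42, a log2 ratio of −0.67 that was not counted. The remaining markers had log2 ratios from −0.02 for Esrrb to 0.38 for Tfcp2l1. The part of these cell types in the values of Sox4, Neurod1 and Ncam1 was not tested. In bulk RNA, fewer cells that express a gene and less RNA of it per cell cannot be told apart.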

How the data were processed

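The authors deposited 1 table of whole-number read counts per Ensembl gene for each library, without normalization. The submitters' processing notes name the aligner STAR (2.4.2a), the counter featureCounts (1.4.5-p1) and the mm10 build; the sources used here state neither the annotation release nor the strand setting. Symbols, positions, exon lengths and GC content came from GENCODE M21 on GRCm38, the same assembly, which matched 42548 of 43629 identifiers. Promoter windows came from RefSeq on GRCm38.p6.

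Library sizes were scaled by TMM in edgeR 4.0.16 (R 4.3.3), and 1 CPM stood for 42.2 counts in P33 and 37.8 in P42. RPKM was computed from these CPM and merged exon length. Log2 ratios used a prior count of 0.5, with the exact Clopper-Pearson interval at 95% of the count share, which covers counting error only (copies made by PCR are not independent). With 1 library per age label no test was possible. The scripts for the ratio and its interval were checked on simulated counts with no spread between libraries, which says nothing about the spread between cultures. The GC and length trend was fitted by lowess (span 0.3, statsmodels 0.14.6) over genes at 1 CPM or more.

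The members and lists were chosen with earlier results of these data known. The text names all members, the 2 most abundant genes of each list, up to 4 counted genes per direction and list, most overlapping genes, Rest, St8sia2 and St8sia4. Other genes were named after their values were seen. A gene that this rule takes is not reported here. Alternatives were total counts, size factors of DESeq2 1.42.0, minimums of 0.5 and 2 CPM or none, folds of 1.5 and 3, a prior count of 2, the trend removed, transcript length and each library alone.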

Additional observations from a re-analysis of the deposited data

How the results depend on the processing

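The count of 7 detected members was the same with DESeq2 size factors, total counts, a minimum of 0.5 CPM and in each library alone (7 to 7), and was 5 at a minimum of 2 CPM, where Sox1 and Neurod1 were lost. Sox4 higher and Neurod1 and Ncam1 lower were counted with every scaling tried, without a CPM minimum, at 1.5-fold and without the GC and length trend. At 3-fold 0 members were higher and 1, Neurod1, was lower. With a prior count of 2 all 9 ratios stayed inside their counting intervals. For the fixed lists, total counts and removal of the trend were alternatives chosen after the data were seen. No paired analysis was possible because the 2 libraries form 1 group. Depth limits Sox3 and Pax6, with 7 to 13 counts per library.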
